A study of Mus musculus with 21 samples.

Results

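In RNA bisulphite sequencing of mouse skin, 1289 cytosines outside tRNA genes and the mitochondrial chromosome remained unconverted in at least 40% of the reads in every WT library. They were chosen by the WT values themselves: each needed at least 10 reads and at least 40% unconverted reads in each of the 4 WT libraries, and a position inside none of the 249 tRNA genes that the study lists for this tissue. They make up 1.53% of the 84358 cytosines outside tRNA genes and the mitochondrial chromosome that had at least 10 reads in each WT library, called covered cytosines here. In all, 897815 cytosines were listed in at least 1 library. The same rule selected 216 cytosines inside the listed tRNA genes and 17 on the mitochondrial chromosome.

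Total back skin came from male mice at postnatal day 25, when the hair follicles start to grow, on a mixed C57Bl6/J and CBA background. The NSun2 -/- mice carried a gene trap in both copies of Nsun2 (clone D014D11 of the German Gene Trap Consortium) in all cells, and the WT mice came from the same breedings. There were 4 WT and 4 NSun2 -/- libraries, described as independent biological replicates. Exons of Nsun2 held between 23 and 48 listed cytosines in each WT library and 0 in each NSun2 -/- library, where a cytosine is listed from 10 reads. Skin markers were covered, with Krt5 and Krt14 of keratinocytes among them, and so were the muscle genes Acta1, Ckm and Myh4, while Hba-a1 and Hbb-b1 of erythrocytes had no covered cytosine.

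Bisulphite turns cytosine into uracil, which is read as T, and leaves 5-methylcytosine (m5C) as it is, so that the percentage of unconverted reads is the measure of m5C. It also counts every cytosine that the chemistry did not reach, for example in tightly folded RNA. NSun2 is an RNA methyltransferase that places m5C at the junction of the variable loop and the TΨC arm of many tRNAs, and also in some other RNAs such as vault RNA. Dnmt2, a different enzyme, methylates a cytosine of the anticodon loop of the Asp, Gly and Val tRNAs.

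To show the kind of site that was selected, the sequence of 21 nt around a member is given for the isolated members, those whose neighbours within 15 nt were unconverted in under 20% of the summed WT reads. Coordinates are those of mm9, positions run from 1, the strand is in brackets, the sequence is that of the RNA strand written as DNA from 5′ to 3′, and the capital marks the member. The first set has the 8 isolated members that were below 20% in the mean of the NSun2 -/- libraries.
Slit3 intron, upstream cytosine, chr11:35438781-35438801 (+): ttgctgtggcCcgggtgcccc
Slit3 intron, downstream cytosine, chr11:35438782-35438802 (+): tgctgtggccCgggtgcccct
SNORD62 in Prrc2b, chr2:32077534-32077554 (+): ggactcaaagCagggagatga
AL808027.3 in Prrc2b, chr2:32081217-32081237 (+): ggactcaaagCagggagatga
intergenic member of chromosome 2, chr2:151855336-151855356 (−): ccaggtggctCgggcgactcc
Npnt intron, chr3:132597745-132597765 (−): tcaaggatgaCatgacatgtc
GluCTC-like locus of chromosome 17, nt 48, chr17:56231438-56231458 (−): ccgccgcggcCtgggttcgat
GluCTC-like locus of chromosome 3, nt 47, chr3:96210210-96210230 (+): accgtcgcgcCagcggttcga

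Of the other 8 members below 20%, which lay in stretches of unconverted cytosines, 3 are shown to compare them with the first set.
LeuCAG-like locus, nt 58, chr13:23545316-23545336 (−): cccctggaggCgtgggttcga
GluCTC-like locus opposite Arrb1, nt 49, chr7:106692423-106692443 (−): ctccatggccCaggtttgatt
Elf1 intron, chr14:79881599-79881619 (+): cttctgcagcCgtgttcgggg

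The next set has the 12 isolated members with the most WT reads among those at 40% or more in the NSun2 -/- mean.
past tRNA GlyGCC of chromosome 8, nt 19, chr8:113154424-113154444 (−): ccttttaattCtaagagatga
past tRNA GluCTC of chromosome 10, nt 20, chr10:30531027-30531047 (+): ttctaaatttCaagaattttt
past tRNA GluCTC of chromosome 10, nt 52, chr10:30531059-30531079 (+): ttttttattgCttctttattg
past tRNA GluTTC of chromosome 14, nt 18, chr14:79881554-79881574 (+): actttttgctCtagttgagtt
past tRNA GluCTC of chromosome 3, nt 47, chr3:96962116-96962136 (+): acttaataatCactcgagaaa
past tRNA GluTTC of chromosome 9, nt 19, chr9:104310968-104310988 (−): ctttagctggCtgctgaggag
n-R5s109, a 5S ribosomal RNA gene, chr8:126077964-126077984 (−): ctggaaatacCgggtgctgta
GlyGCC-like locus of chromosome 3, nt 37, chr3:96115203-96115223 (+): tcgcctcccaCatgggggact
GluCTC-like locus of chromosome 17, nt 47, chr17:56231439-56231459 (−): accgccgcggCctgggttcga
GluCTC-like locus of chromosome 1, nt 47, chr1:173009552-173009572 (−): accgccgcggCccgggttcga
GluCTC-like locus of chromosome 1, nearby copy, nt 47, chr1:173001938-173001958 (−): accgccgcggCccgggttcga
intergenic member of chromosome 2, chr2:111573750-111573770 (−): tgttggatgtCttttagatag

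The windows of SNORD62 and of AL808027.3 were identical, so that these small RNAs cannot be told apart by this stretch alone. The aligner reports unique best matches, and 116 and 355 WT reads were counted at these members. Among all 1289 members there were 1152 distinct windows of this length, and 197 members shared theirs with another member. The members at nt 47 and 48 of the GluCTC-like locus of chromosome 17 are adjacent, and they differed in the NSun2 -/- libraries, as described below.

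The members were strongly unconverted in WT by construction. The WT mean had a median of 74.4% over the members and ran from 41.7% to 100%, with 288 members at or above 90% and 280 below 60%. The spread among WT libraries had a median SD of 6.51 percentage points over members (n = 4 libraries). The covered cytosines that were not members had a mean of 2.74% to 5.18% in the WT libraries. Each member had between 48 and 425533 WT reads in all, with a median of 252. The members formed 342 loci when members of a strand at most 100 nt apart were joined. Of these loci 90 had a single member, and the 96 loci with 5 members or more held 762 members.

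Depth differed among libraries. Reads summed over cytosines were between 24515961 and 37612638 in WT, and between 8681271 and 60455763 in NSun2 -/-. The lowest of these, NSun2 -/- replicate 2, also had the highest unconverted level among cytosines that were not members, a mean of 11.9% against 2.68% to 5.00% in the other NSun2 -/- libraries, and it listed 1110 of the members. Over the 63834 non-member cytosines with 10 reads in all 8 libraries, the mean was 3.93% ± 1.14 (SD, n = 4) in WT and 6.10% ± 3.98 (SD, n = 4) in NSun2 -/-. The libraries overlapped, with p = 0.429 in an exact two-sided permutation test whose smallest possible p is 0.0286.

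Most members lay outside exons. By annotation on their own strand, 696 were intergenic, 276 intronic, 131 in tRNA-like loci, 69 in small noncoding RNAs, 30 in long noncoding RNAs, 31 in coding exons, 28 in other exons of coding genes, 26 in UTRs and 2 in pseudogene exons. A tRNA-like locus is a stretch outside the listed tRNA genes that matches the whole of a listed tRNA gene with at least 75% identity, and 41 were found. The share of covered cytosines that were members was 20.7% in tRNA-like loci, 13.3% in introns and 10.9% in intergenic sequence, but 0.0593% in coding exons and 0.246% in UTRs. Coding exons and UTRs held 52315 and 10573 of the covered cytosines, so that most of the covered sequence contributed few members. In all, 468 members lay in 84 genes of the same strand, and 140 had a gene only on the opposite strand.

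Many of the intergenic and intronic members were next to the 3′ end of an annotated RNA or of an exon. In the 60 nt past the 3′ end of a listed tRNA gene, 210 of 499 covered cytosines were members (42.1%). Past the 3′ end of tRNA-like loci, 130 of 314 were members (41.4%). In the 60 nt past the 3′ end of annotated small RNAs, 146 of 476 were members (30.7%), and past the 3′ end of exons 115 of 676 (17.0%). The 115 members past exons were all intronic. Of these, 50 were in Col1a1, 28 in Col1a2 and 35 in Col3a1, so that this share mainly describes these collagen genes.

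The 5′ sides held far fewer. Before the 5′ end of tRNA genes and tRNA-like loci only 11 cytosines were covered, and 0 of them were members. Before the 5′ end of small RNAs 16 of 115 were members (13.9%), and these 16 lay in a single locus next to mmu-mir-689-2 (chr16:11144165-11144214). Before the 5′ end of exons 6 of 254 were members (2.36%). Inside exons 84 of 68192 were members (0.123%), and 382 members lay in none of these places.

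**Figure D1:**
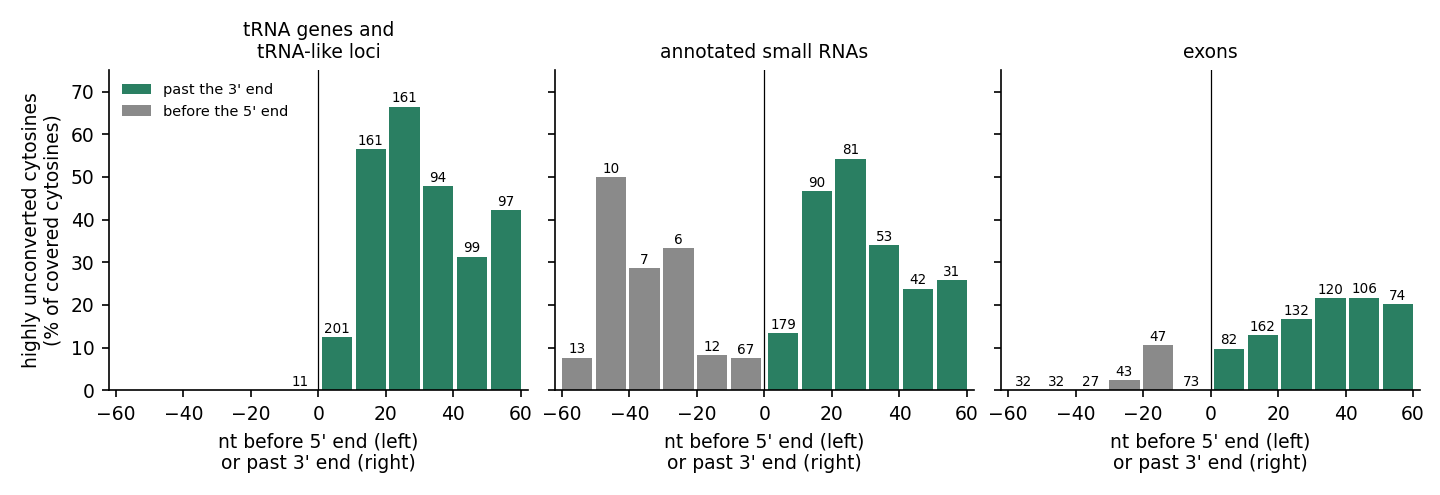
Share of covered cytosines that were members (percent, y axis) in bins of 10 nt before the 5′ end (grey) and past the 3′ end (green) of tRNA genes and tRNA-like loci, annotated small RNAs and exons; the number over each bar is the number of covered cytosines. Past tRNA 3′ ends the share was 12.4% in the bin nearest the end and 66.5% at 21 to 30 nt.

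Within the 60 nt past tRNA 3′ ends, the share of members was lowest next to the end. It was 12.4% at 1 to 10 nt (25 of 201), 56.5% at 11 to 20 nt (91 of 161), 66.5% at 21 to 30 nt (107 of 161), 47.9% at 31 to 40 nt, 31.3% at 41 to 50 nt and 42.3% at 51 to 60 nt. Small RNAs had the same order near the end, with 13.4% at 1 to 10 nt, 46.7% at 11 to 20 nt and 54.3% at 21 to 30 nt. Of 71 listed tRNA genes with a covered cytosine in this stretch, 58 had a member there.

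The level past tRNA 3′ ends varied with the offset and differed widely between some adjacent offsets, each taken over its own set of cytosines. At nt 11 past the end, 17 of 20 covered cytosines were members, with a median of 84.7% in WT and 83.8% in NSun2 -/-. At nt 12 next to it, 1 of 13 was a member, with a WT median of 32.8%. At nt 19, 13 of 15 were members, with medians of 97.2% in WT and 94.7% in NSun2 -/-, and at nt 27, 22 of 23, with medians of 81.2% and 83.2%. Other offsets had wider gaps between the genotypes: the medians were 50.0% in WT and 33.4% in NSun2 -/- at nt 5 (20 cytosines), 70.1% and 91.8% at nt 35 (12 cytosines), and 69.1% and 36.7% at nt 60 (10 cytosines). All covered cytosines were members at nt 34 (10 of 10), nt 52 (8 of 8) and nt 53 (10 of 10). The genome windows shown above for the members at nt 18, 19, 20, 47 and 52 differ from each other. They are reference sequence, and whether the reads past these ends held genome or adapter sequence was not tested.

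At nt 37 to 42 the libraries of a genotype went apart. Over the 29 cytosines there with 10 reads in every library the median was 64.1%, 16.7%, 71.1% and 75.8% in WT replicates 1 to 4 and 28.6%, 70.0%, 64.3% and 13.4% in NSun2 -/- replicates 1 to 4. WT replicate 2 and NSun2 -/- replicates 1 and 4 were low, and the other 5 libraries were high. The median SD among libraries was 36.1 points in WT and 25.2 points in NSun2 -/-, against 4.33 to 7.58 points in WT in the other stretches, and only 1 of the 29 cytosines was a member. Whether removal of adapter sequence from the ends of reads differed among libraries is not given in the sources used here, and its part in the values past 3′ ends was not tested.

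**Figure D2:**
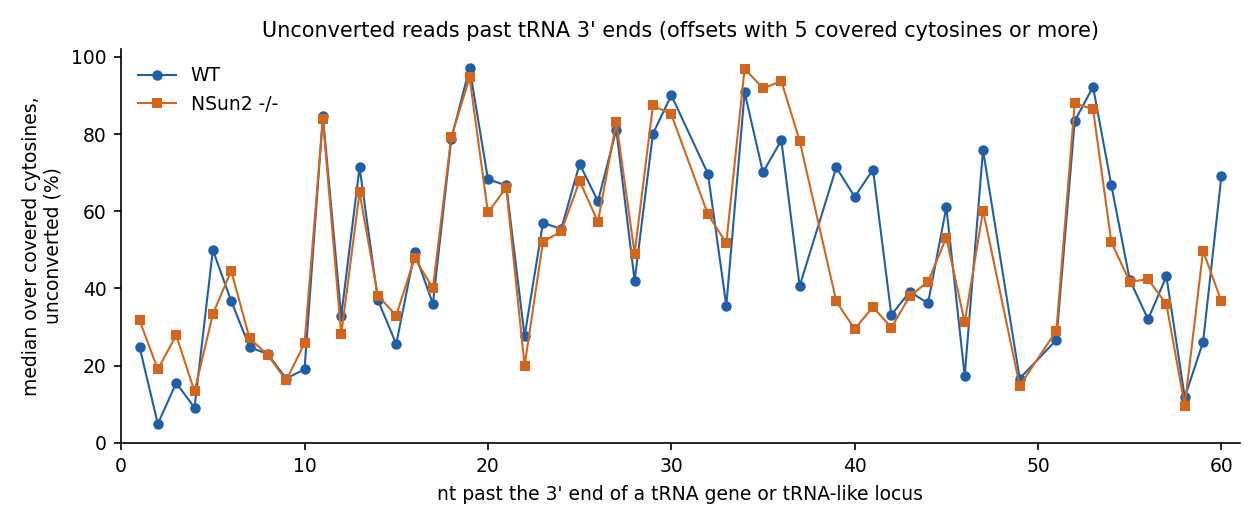
Median percent of unconverted reads (y axis) over covered cytosines at each nt past the 3′ end of tRNA genes and tRNA-like loci (x axis), in the mean of the WT (blue circles) and of the NSun2 -/- libraries (orange squares), for offsets with at least 5 covered cytosines. The medians of the genotypes are close at nt 11 (84.7% and 83.8%) and nt 19 (97.2% and 94.7%) and further apart at nt 35 (70.1% and 91.8%) and nt 60 (69.1% and 36.7%).

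The same asymmetry was seen around the loci of members as a whole, which include the members past 3′ ends counted above. In the 40 nt 5′ of the first member of a locus, 79.9% of 2099 covered non-members were below 20% in WT. In the 40 nt 3′ of the last member, 45.4% of 703 were below 20%. No cytosine was covered on the 3′ side in 146 of 342 loci, and on the 5′ side in 24. Members in exons were also more frequent near the exon's 3′ end: 8 of 917 covered cytosines within the last 10 nt (0.872%) against 57 of 46758 at 100 nt or more from it (0.122%).

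In the NSun2 -/- libraries, which the rule did not use, most members were still unconverted. Of 1244 members with at least 10 reads in at least 3 NSun2 -/- libraries, 1178 were at or above 40% in the NSun2 -/- mean, 50 were between 20% and 40%, and 16 were below 20%. The median was 71.0% and the median difference from WT -1.09 points, with a range from -91.8 to 31.6 points. In 889 members each of 4 NSun2 -/- libraries was at or above 40%. Another 22 members had no NSun2 -/- library with 10 reads and 23 had 1 or 2, and these were not classed.

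Since the WT values were selected for being high, the reverse selection is given beside these counts. The rule applied to the NSun2 -/- libraries gave 1484 cytosines, of which 1256 had at least 3 WT libraries. In the WT mean 1193 of them were at or above 40%, 60 between 20% and 40%, and 3 below 20%. Inside the listed tRNA genes, of 214 cytosines chosen by the WT rule and read in at least 3 NSun2 -/- libraries, 10 were below 20%, 59 between 20% and 40%, and 145 at or above 40%, with medians of 85.9% in WT and 52.9% in NSun2 -/-.

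**Figure D3:**
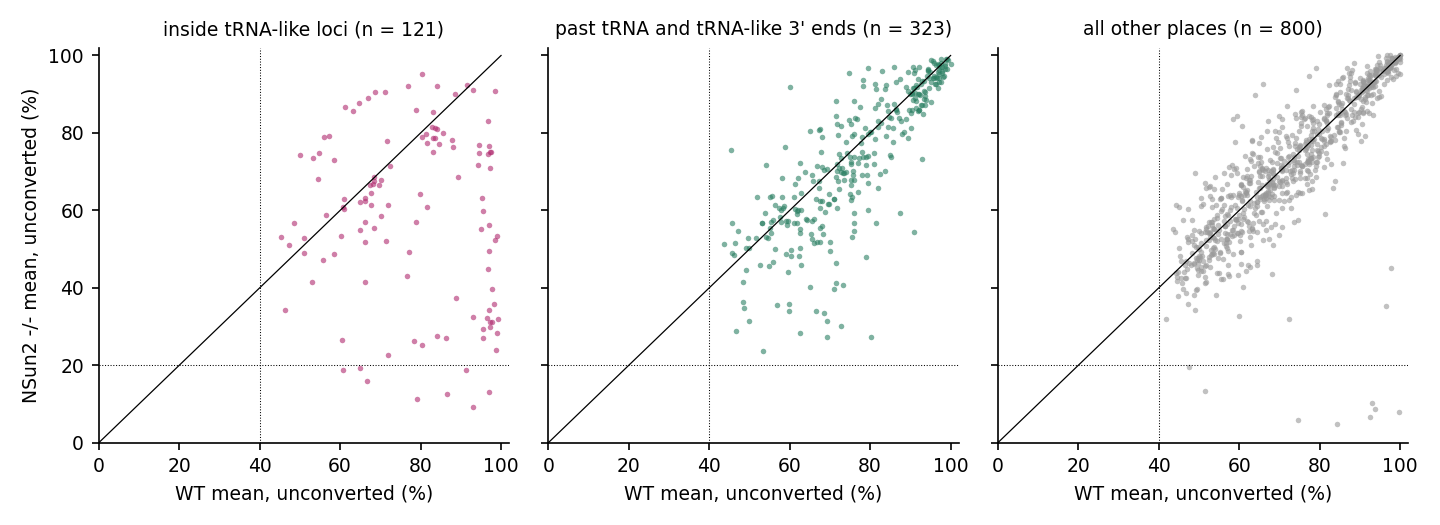
Mean percent of unconverted reads in WT (x axis) and NSun2 -/- (y axis) for the 1244 members with at least 3 NSun2 -/- libraries, split by place; the line marks equal values and the dotted lines 40% in WT and 20% in NSun2 -/-. Most members past 3′ ends and elsewhere gather along the line. Members inside tRNA-like loci reach down to 9.20% in NSun2 -/-, and those in all other places to 4.85%, at SNORD62. Of the members below 20%, 8 were inside tRNA-like loci and 8 in all other places.

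By place, members below 20% in NSun2 -/- were found inside tRNA-like loci, inside small RNAs and in sequence of neither kind. They were picked on values of both genotypes. That their libraries were apart between the genotypes, as described below, was largely fixed by this choice. In tRNA-like loci 8 of 121 members were below 20% and 21 between 20% and 40%, with a median difference of -9.98 points. Past the 3′ ends of tRNA genes 0 of 206 were below 20% and 10 between 20% and 40%, with a median difference of -1.78 points. Past small RNAs all 146 members were at or above 40% (median difference 0.95 points), as were 114 of 115 past exons (-0.27 points) and 81 of 84 inside exons (-0.46 points).

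Inside tRNA-like loci the low values gathered at the position where NSun2 acts on tRNAs. Counted from the base where the match starts, a numbering that can differ by a few nucleotides from the conventional tRNA numbering, 65 members in 29 loci lay at nt 46 to 49. Their WT median was 94.6%. In the 58 with at least 3 NSun2 -/- libraries the NSun2 -/- median was 43.9%, from 9.20% to 90.9%, with 7 below 20%, 20 between 20% and 40% and 31 at or above 40%. The NSun2 -/- mean was lower in 56 of 58, and in 47 every NSun2 -/- library was below every WT library, which was so in 0.725% of all 122736 cytosines tested. Over all 1244 members this was so at 113, and every NSun2 -/- library was above every WT library at 34, beside 3.49% of all cytosines tested. The rule used the WT side of this contrast, and nothing is read from these shares.

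The medians at nt 46 to 49 differed between tRNAs, and each pools positions that could differ within a locus. At nt 47 of a GluCTC-like locus of chromosome 1 (chr1:173009562) the means were 56.4% in WT and 58.7% in NSun2 -/-. At nt 48 (chr1:173009561) they were 72.0% and 22.6%. At nt 47 of the locus opposite Arrb1 they were 65.0% and 19.4%. The 6 AspGTC-like loci had a WT median of 98.0% over 12 members and an NSun2 -/- median of 29.1% over 6, from 24.0% to 31.9%. In 9 GluCTC-like loci the medians were 80.4% and 32.4%, with an NSun2 -/- range of 9.20% to 79.0%. The 7 GlyGCC-like loci had 94.8% and 63.9%, with an NSun2 -/- range of 26.5% to 76.8%. The 2 GlyCCC-like loci had 88.5% and 60.4%, with a range of 11.4% to 83.2%. Val loci ranged widely, with 93.4% and 71.9% in 2 ValAAC-like loci, 91.9% and 50.3% in a ValCAC-like locus and 92.2% and 31.4% in a ValTAC-like locus. NSun2 -/- replicate 3 was the lowest library at several members, such as nt 49 of the GluCTC-like locus in Gm17575 (chr3:96191351), with 56.2%, 66.7%, 2.60% and 33.9% in NSun2 -/- against 94.6% or more in each WT library. The differences between tRNAs were not tested.

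At other positions of the tRNA-like loci the medians of the genotypes were closer. At nt 37 or 38, in the anticodon loop, 12 members lay in 6 AspGTC-like and 6 GlyGCC-like loci, which are tRNAs that Dnmt2 methylates there. The 6 GlyGCC-like members had medians of 69.1% in WT and 67% in NSun2 -/-, and the AspGTC-like members 84.1% and, over the 3 with NSun2 -/- values, 92.2%. In none of 9 was every NSun2 -/- library below every WT library. From nt 54 on, 41 members had medians of 67.7% and 73.1%, and 1 of them, in the LeuCAG-like locus described below, was below 20% in NSun2 -/-. Of the 41 tRNA-like loci, 15 were identical to a listed tRNA gene and 13 to another tRNA-like locus. A read that lies wholly within such a copy cannot be placed by its sequence. The aligner reports unique best matches, and how far the counted reads reached beyond the copies was not examined.

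**Figure D4:**
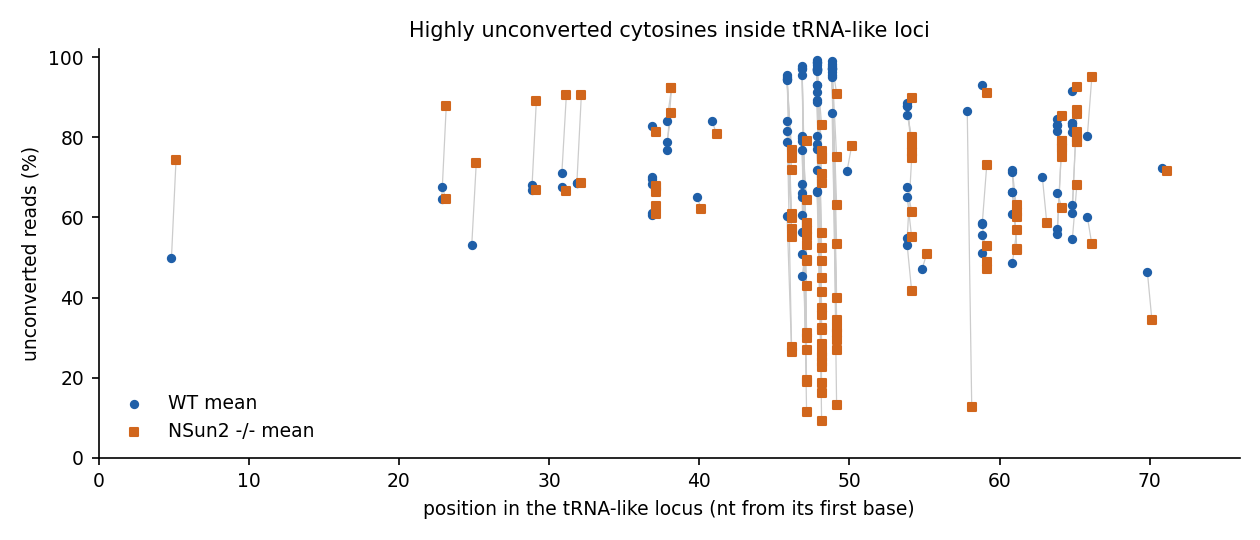
Mean percent of unconverted reads (y axis) in WT (blue circles) and NSun2 -/- (orange squares) for the 121 members inside tRNA-like loci with at least 3 NSun2 -/- libraries, by position from the base where the match starts (x axis); grey lines join the genotypes of a member. At nt 46 to 49 the NSun2 -/- median was 43.9%.

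The adjacent cytosines of the GluCTC-like locus on chromosome 17, which lies opposite to Hdgfrp2, show how neighbours differed. At nt 48 (chr17:56231448) the level was 64.1%, 61.7%, 72.9% and 67.9% in the WT libraries and 24.0%, 20.4%, 7.46% and 12.4% in the NSun2 -/- libraries. At nt 47 (chr17:56231449) it was 64.8%, 75.7%, 62.2% and 62.1% in WT and 57.1%, 69.9%, 44.5% and 56.1% in NSun2 -/-. The genotypes were apart at nt 48 and overlapped at nt 47, where the lowest NSun2 -/- library was replicate 3.

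The GluCTC-like locus opposite Arrb1, a regulator of signalling by G protein-coupled receptors, had 3 neighbouring members below 20%. At nt 49 the level was 95%, 97.2%, 97.7% and 98.5% in WT and 16.3%, 8.93% and 14.0% in NSun2 -/- replicates 1, 3 and 4. At nt 48 it was 93.0% ± 1.66 (SD, n = 4) in WT and 9.20% ± 5.09 (SD, n = 3) in NSun2 -/-. At nt 47 it was 65.0% ± 7.85 (SD, n = 4) and 19.4% ± 2.26 (SD, n = 3). All 3 were apart between the genotypes, but NSun2 -/- replicate 2 had too few reads there.

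Of the remaining tRNA-like members below 20%, the one with the most WT reads was at nt 47 of a GlyCCC-like locus (chr3:96227980). It was at 67.5%, 81.0%, 80.0% and 88.1% in WT and 13.3%, 19.6%, 7.22% and 5.62% in NSun2 -/-. The LeuCAG-like locus of chromosome 13 was at 86.5% ± 9.01 (SD, n = 4) and 12.6% ± 3.34 (SD, n = 4) at nt 58. Leu tRNAs have a long variable arm, and this locus has 83 nt. Counted from its last base, this member lies level with nt 47 of a locus of 72 nt. The GluCTC-like loci of chromosomes 1 (chr1:158423932) and 3 (chr3:96210220) were at 91.4% ± 2.62 and 60.7% ± 9.48 in WT (SD, n = 4) and at 18.7% ± 10.6 (SD, n = 4) and 18.9% ± 5.99 (SD, n = 3) in NSun2 -/-. In each of these the genotypes did not overlap.

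Outside tRNA-like loci, the low members with the clearest contrast were in introns of protein-coding genes, in a snoRNA and in intergenic sequence. Slit3 encodes a secreted ligand of Robo receptors. In its intron, chr11:35438791 was at 92.6%, 96.6%, 91.9% and 94.2% in WT and at 2.17%, 5.56%, 23.7% and 3.03% in NSun2 -/-. The adjacent chr11:35438792 was at 94.4%, 93.1%, 89.2% and 93.2% in WT and 2.22%, 5.56%, 18.6% and 0% in NSun2 -/-. Replicate 3 was the highest NSun2 -/- library at both, and each of them rested on 449 WT reads. A further member downstream in this intron, chr11:35438876, was at 75%, 57.1%, 76.1% and 80.9% in WT and 47.6%, 5.88%, 40.7% and 33.3% in NSun2 -/-.

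SNORD62 is a box C/D small nucleolar RNA, a class that guides methylation of ribose in other RNAs, and both copies lie within Prrc2b. At nt 55 of SNORD62 (chr2:32077544) the level was 72.0%, 90%, 84.6% and 90.5% in WT and 8.15%, 3.94% and 2.47% in NSun2 -/- replicates 1, 3 and 4. At nt 55 of its copy AL808027.3 (chr2:32081227) it was 70.0%, 83.0%, 70.5% and 75% in WT and 4.51%, 9.30%, 5.20% and 4.07% in NSun2 -/-. The genotypes were far apart in both copies, and the 3 neighbours of each were unconverted in 6.57% and 2.46% of WT reads.

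An intergenic member of chromosome 2 (chr2:151855346) was at 100%, 100%, 100% and 98.8% in WT and 0%, 8.33% and 15.4% in NSun2 -/- replicates 1, 3 and 4, while its 10 neighbours were at 1.52% in WT. It had 133 WT reads and 35 NSun2 -/- reads in all. In an intron of Npnt, which encodes the matrix protein nephronectin, chr3:132597755 was at 92.9% ± 5.88 (SD, n = 4) in WT and 10.3% ± 4.44 (SD, n = 3) in NSun2 -/-, with 98 and 39 reads in all.

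The last 2 members below 20% lay 63 nt past the 3′ end of a Glu tRNA sequence, just beyond the 60 nt used above. In an intron of the transcription factor gene Elf1, chr14:79881609 past tRNA GluTTC was at 41.8%, 55.0%, 50.7% and 58.6% in WT and 23.2%, 7.49%, 11.2% and 11.7% in NSun2 -/-. Past the GluCTC-like locus of chromosome 1, chr1:173009474 was at 47.5% ± 5.65 (SD, n = 4) in WT and 19.6% ± 5.56 (SD, n = 4) in NSun2 -/-. Both were apart between the genotypes, and both had neighbours that were unconverted in 54.9% and 39.5% of WT reads.

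**Figure D5:**
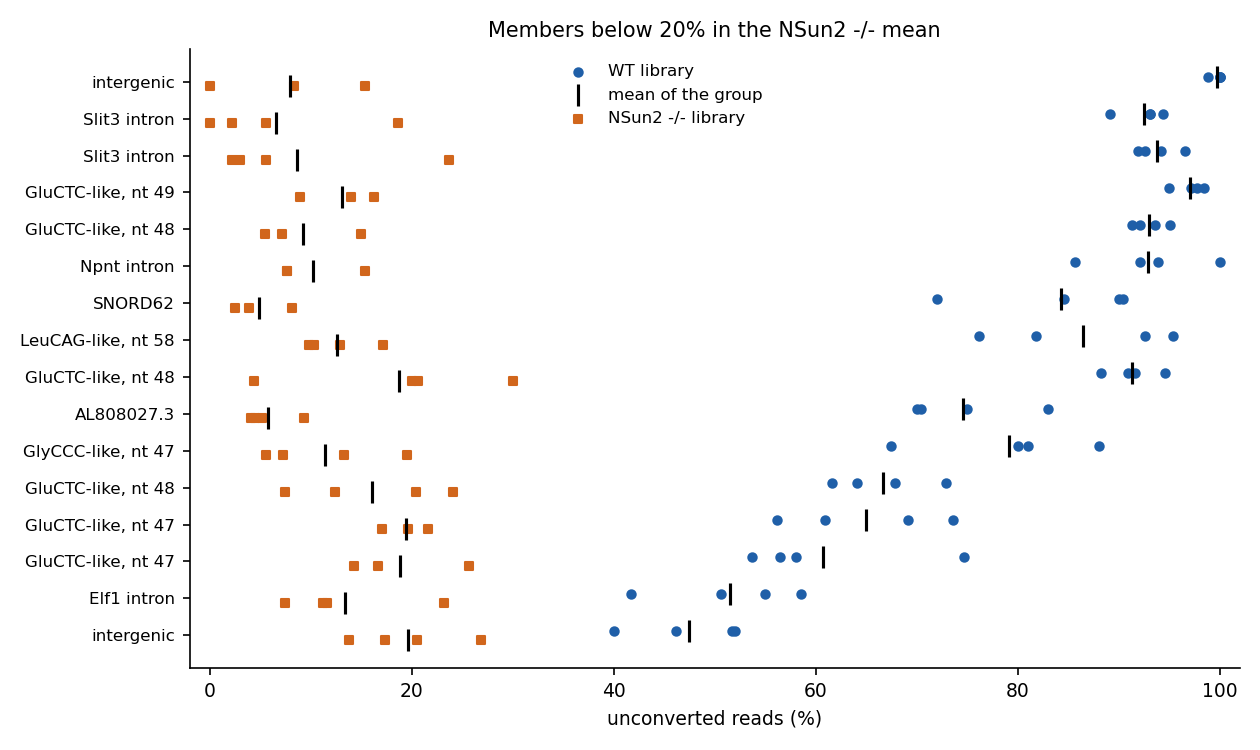
Percent of unconverted reads (x axis) in each WT (blue circles) and NSun2 -/- library (orange squares) for the 16 members below 20% in the NSun2 -/- mean, ordered by the difference between genotypes; black ticks are group means. In all 16 every NSun2 -/- library lay below every WT library, beside 0.725% of all 122736 cytosines tested. The choice on values of both genotypes largely fixes this. The largest difference was -91.8 points.

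The stretch past tRNA GluTTC in Elf1 held members that went both ways. At nt 45 past the end, chr14:79881591 was at 51.7%, 66.6%, 64.1% and 68.0% in WT and 36.8%, 27.8%, 27.7% and 20.9% in NSun2 -/-. At nt 56, chr14:79881602 was at 54.4%, 42.2%, 42.9% and 41.9% in WT and 69.9%, 73.0%, 76.9% and 82.6% in NSun2 -/-. At nt 18, chr14:79881564 was at 98.6% ± 0.418 (SD, n = 4) and 97.3% ± 1.76 (SD, n = 4). At nt 45 and nt 56 the genotypes were thus apart in opposite directions.

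Isolated members with many reads included some that were far lower in NSun2 -/- without reaching 20%. At nt 49 of the GluCTC-like loci of chromosome 1, chr1:173009560 was at 97.2% ± 0.585 in WT and 31.2% ± 10.99 in NSun2 -/- (SD, n = 4 each), chr1:173001946 at 97.0% ± 0.575 and 34.3% ± 6.495, and chr1:172994318 in Fcgr3 at 96.4% ± 0.938 and 32.4% ± 3.40. In all, 15 isolated members were at least 30 points lower in NSun2 -/-, 8 of them at nt 46 to 49 of tRNA-like loci.

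The 12 isolated members shown above that had been picked for 40% or more in the NSun2 -/- mean differed less, as that choice implies. In 10 of them the genotypes overlapped. Past tRNA GlyGCC of chromosome 8, opposite to Vac14, the member at nt 19 had 403938 WT reads and was at 97.9%, 98.3%, 96.2% and 95.9% in WT and 94.2%, 96.0%, 95.5% and 95.5% in NSun2 -/-. In n-R5s109, a gene of the ribosomal 5S RNA, chr8:126077974 was at 99.8% ± 0.0807 (SD, n = 4) in WT and 99.8% ± 0.136 (SD, n = 4) in NSun2 -/-. Its 7 neighbours were at 4.75% in WT. The GlyGCC-like locus of chromosome 3 was at 82.8% ± 4.07 (SD, n = 4) and 81.4% ± 4.23 (SD, n = 4) at nt 37. The groups overlapped in each of these. Among the 12, the intergenic chr2:111573760 was at 87.3%, 90.3%, 84.4% and 80.3% in WT and 92.2%, 94.0%, 94.7% and 95.5% in NSun2 -/-, with every NSun2 -/- library above every WT library. Past tRNA GluTTC of chromosome 9 (chr9:104310978) it was the reverse, with 97.9% ± 0.385 (SD, n = 4) in WT and 95.5% ± 1.91 (SD, n = 4) in NSun2 -/-.

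The 146 members past small RNAs lay in 66 loci. By annotation 59 were intergenic, 54 intronic, 20 in long noncoding RNAs and 13 in other exons of coding genes. Some lay in host genes for snoRNAs, whose snoRNAs are cut out of the spliced intron. Gas5, a noncoding host gene, had 8 members past SNORD74, SNORD75 and SNORD79, with medians of 71.0% in WT and 73.9% in NSun2 -/-, and Snhg1 had 9 past SNORD25, SNORD26 and SNORD30, with medians of 64.5% and 62.5%. At nt 31 past SNORD75 (chr1:162966073) the level was 47.8%, 55.1%, 47.0% and 45.6% in WT and 52.7%, 58.2%, 57.8% and 51.2% in NSun2 -/-, and the groups overlapped. Eif4a2, which encodes an RNA helicase of translation initiation, had 3 members past Snord2, with medians of 91.8% and 92.2%. In Rpl7a, a gene of a large-subunit ribosomal protein, the 3 members past SNORD24 had medians of 45.1% in WT and 61.3% in NSun2 -/-.

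Inside small noncoding RNAs members were rare, with 69 of 6957 covered cytosines (0.992%). Genes annotated as snoRNAs held 22 of 4915, those annotated as U snRNAs of the spliceosome 18 of 1021, and those annotated as 7SK 10 of 254. The 10 of 7SK lay in copies within Celf2 (7) and Atl1 (3). Of the 18 in U snRNAs, 7 lay in a U1 copy within Opa3. Whether these copies are working genes was not tested. Genes annotated as ribosomal RNA held 7 of 77, and ribosomal RNA copies missing from the annotation were not counted among them. Vault RNA (43 covered cytosines), RNase MRP (89), Y RNA (83) and miRNAs (88) held 0 members. Malat1 had 1 of 992, and Neat1 (346) and Meg3 (37) had 0. The RNAs 7SL, RNase P, telomerase RNA and H19 had no covered cytosine. The 10 members of the 7SK copies had medians of 69.9% in WT and 79.6% in NSun2 -/-, and the 18 of genes annotated as U snRNAs 61.1% and 69.7%. In U12, the snRNA of the minor spliceosome, chr15:82980203 was at 54.1%, 71.1%, 53.7% and 46.2% in WT and 67.2%, 59.5%, 68.9% and 50.4% in NSun2 -/-, with overlap.

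Among protein-coding genes the fibrillar collagens held the most members. Col1a1 and Col1a2 encode the chains of type I collagen and Col3a1 that of type III collagen. Col1a1 had 69 members among 1640 covered cytosines, 50 of them past exons and 13 inside exons, with medians of 65.0% in WT and 67.2% in NSun2 -/-. Col1a2 had 47 of 1320 (67.3% and 71.6%) and Col3a1 40 of 1189 (71.5% and 66.8%). None of these members was below 20% in the NSun2 -/- mean, and the lowest was 34.2%, in Col3a1.

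Exonic members of the collagen genes varied among libraries. In a coding exon of Col1a1, chr11:94804744 was at 56.4%, 57.2%, 69.9% and 62.8% in WT and 75.4%, 69.8%, 79.0% and 72.5% in NSun2 -/-. In a UTR of Col1a2, chr6:4490871 was at 62.4%, 40.3%, 44.8% and 70.7% in WT and 36.4%, 54.1%, 36.3% and 48.2% in NSun2 -/-. The genotypes overlapped in Col1a2, and in Col1a1 only WT replicate 3 reached the level of NSun2 -/- replicate 2. In Sparc, which encodes a matrix glycoprotein, chr11:55223395 was at 57.3% ± 3.78 (SD, n = 4) and 63.7% ± 5.50 (SD, n = 4).

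The loci with the most members outside these genes were of the tRNA kind or unannotated. On chromosome 1, 3 GluCTC-like loci (chr1:172994242-172994320 in Fcgr3, chr1:173001868-173001948 and chr1:173009474-173009562) had 18 members each. An unannotated locus (chr2:90235331-90235400) had 17, with medians of 82.7% in WT and 82.3% in NSun2 -/-. The locus next to mmu-mir-689-2 had 16, between 50.5% and 81.2% in WT and between 47.0% and 76.5% in NSun2 -/-.

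Most members did not stand alone. By the level of their neighbours within 15 nt, 1098 members lay in a stretch of unconverted cytosines, 161 were isolated and 30 had no covered neighbour. Of the members with at least 3 NSun2 -/- libraries, 8 of 151 isolated members and 8 of 1067 in stretches were below 20% in the NSun2 -/- mean. The isolated members at or above 40% numbered 135, and those in stretches 1017.

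The letters after the members were compared with all covered cytosines. The motif CNGGG, known as a context of NSun2 in mRNA and read on the member's strand, followed 3.96% of members and 2.21% of all covered cytosines. Among the 16 members below 20% in NSun2 -/- it was found at 5 (31.2%), namely both copies at SNORD62, whose sequence was identical, the upstream cytosine of Slit3, nt 48 of the GluCTC-like locus of chromosome 17 and nt 47 of the GlyCCC-like locus of chromosome 3. The motif CTCCA with the member as the third letter, a context of the related enzyme NSun6, was found at 0.310% of members and 0.532% of all covered cytosines. These matches are a description of the sequence and not a test.

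Close to the threshold, members and non-members were alike. Just inside it lay 2 cytosines in a UTR of the ubiquitin-conjugating enzyme gene Cdc34 (chr10:79145114 and chr10:79145119) and 1 in a UTR of Timp2, an inhibitor of metalloproteinases (chr11:118216412), each with 40.0% in its lowest WT library. Just outside lay an intronic cytosine of Col1a1 (chr11:94812236, lowest 39.7%) and intergenic cytosines on chromosomes 13 (chr13:23528282, 39.5%) and 6 (chr6:47618076, 39.5%). When the rule was applied to 3 WT libraries, between 91.0% and 94.6% of the chosen cytosines were at or above 40% in the WT library left out. The number below 20% there was 47 in WT replicate 2 and 2 to 4 in the others. The same step in the NSun2 -/- libraries gave 91.8% to 95.9% for replicates 1, 2 and 4, but 75.3% for replicate 3, where 328 cytosines were below 20%, against 3 to 24 in the others.

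Cytosines covered by 10 reads or more in 3 or 4 libraries per genotype entered edgeR's quasi-likelihood test, with both kinds of reads as counts. A call needed 10 points or more between the genotypes and an adjusted p below 0.05. Of 1244 members tested, 66 were called lower in NSun2 -/-, beside 0.158% of all 122736 cytosines, and 7 higher, beside 0.0733%. Because the members were chosen on the WT values of this contrast, these counts describe the members and nothing is read from them. Of the 66, 41 were inside tRNA-like loci, 40 of them at nt 46 to 49, 14 past tRNA 3′ ends, 2 in small noncoding RNAs and 9 elsewhere. None was past a small RNA or in or past an exon.

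Of the 16 members below 20%, 15 were called lower. These 16 were chosen on values of both genotypes, so that nothing is read from their calls or adjusted p. The GluCTC-like member of chromosome 3 (chr3:96210220) was not, with an adjusted p of 0.351 and a difference of -41.9 points. The adjusted p of edgeR's test was 1.03e-05 and 8.36e-06 at the Slit3 cytosines chr11:35438791 and chr11:35438792, 2.37e-08 at AL808027.3 (chr2:32081227) and 3.36e-05 at SNORD62 (chr2:32077544), 0.000415 at the intergenic member of chromosome 2 (chr2:151855346) and 0.00241 at Npnt (chr3:132597755). The 7 called higher were 2 in Col1a1 (chr11:94804744 and chr11:94804752), 2 in a GlyCCC-like locus (chr4:32317278 and chr4:32317289), 1 in a GlyGCC-like locus (chr4:132670418), 1 in Elf1 (chr14:79881602) and 1 in intergenic sequence (chr2:111573711). Their differences ran from 12.5 to 30.3 points. In limma's test 44 members were called lower and 0 higher, and the adjusted p at the called members therefore depends on how the spread between libraries was modelled.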

How the data were processed

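Bisulphite-treated RNA of 8 skin libraries was analysed. Total RNA had been depleted of ribosomal RNA, treated with bisulphite and ligated to adapters without size selection. Reads were aligned by the authors with Bismark 0.7.6 (the submitters' processing notes), which reports unique best matches; the study names GRCm38 transcripts, but all 897815 listed positions fall on C or G of mm9 after adding 1, and mm9 was used. The authors deposited, per cytosine with at least 10 reads, 2 counts (unconverted and converted reads) and the percent unconverted, none of them normalized. The study's limit on unconverted cytosines per read could not be applied to counts. Members and gene lists were chosen with earlier results of these data known. Annotation was GENCODE vM1.

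Cytosines were tested with edgeR 4.0.16 in R 4.3.3 on both counts (a term for each library, genotype as the contrast, Benjamini-Hochberg adjustment). A common dispersion was tried first, giving 45 members lower and 1 higher. On simulated data it recovered few changes, in a run whose counts are not printed here. The dispersion was then set to 0 and the spread between libraries left to the quasi-likelihood dispersion, after the counts of members had been seen. On 20000 simulated cytosines this recovered 32% of changes of 20 points and 78% of 35 points, with 3 false calls. limma was version 3.58.1, and other steps ran in Python 3.11.15 (pysam 0.24.0, scipy 1.17.1, numpy 2.4.6, pandas 2.3.3). Named members followed a rule: isolated members by WT reads, regions with the most members, 5 per annotation class by WT reads, and 3 on each side of the threshold; the other members below 20%, the called members and other host genes were added after their values were seen. Alternatives were other thresholds and coverage, summed reads, the replicate block and each library left out. tRNA-seq and Pol III counts, deposited by the authors as counts per tRNA sequence or gene, were not used. A member that the rule names is not reported here.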

Additional observations from a re-analysis of the deposited data

Results flagged for a closer look

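In 146 sets of 4 libraries, 7 held a library that stood apart from the other 3 by Dixon's ratio at its 95% critical value, where chance gives about 1 in 20 sets. At the Slit3 cytosine chr11:35438791 NSun2 -/- replicate 3 was at 23.7%, against 5.56% in the next. At the intergenic chr2:151855346 WT replicate 4 was at 98.8%, against 100% in the others. Past tRNA GluCTC of chromosome 3 (chr3:96962126) NSun2 -/- replicate 3 was at 68.7%, against 90.3%. Past tRNA GlyGCC of chromosome 11 (chr11:68932279) WT replicate 2 was at 74.7%, against 61.9%. In the long noncoding RNA 2700023E23Rik (chr5:74489293) NSun2 -/- replicate 3 was at 67.2%, against 70.2%. In Snora68 (chr8:73419689) WT replicate 2 was at 74.3%, against 67.6%. The median over all members was 69.2% in NSun2 -/- replicate 4, against 72.7% in the next lowest library.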

How the results depend on the processing

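The number of members (1289) was 845 and 670 with at least 20 and 30 reads in each WT library, 2794 with reads summed over the WT libraries, 818 without tRNA-like loci and the 60 nt past tRNA 3′ ends, 688 without the 60 nt past all 3′ ends (both chosen after seeing the data), and 1408 to 1738 without each WT library. Leaving out the tRNA genes of the Pol III table was not run, since that table gives no coordinates. The 16 members below 20% in NSun2 -/- were 9 with all 4 NSun2 -/- libraries required, 6 at a cut-off of 10%, 32 at 30% and 14 to 20 without each library. Those at or above 40% (1178) were 611 without the 60 nt past 3′ ends and 1163 to 1525 without each library.

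The 66 members called lower were 37 with coverage of at least 30 reads, 44 with limma, 45 with a common dispersion, and 66 to 88 without each library. The 7 called higher were 4 at a difference of 20 points, 0 with limma, 1 with a common dispersion (added after seeing the data), 3 with coverage of at least 20 or 30 reads, 11 when only cytosines outside tRNA genes and the mitochondrial chromosome were tested, and 9 to 26 without each library. It was 26 without NSun2 -/- replicate 2, 22 without NSun2 -/- replicate 3, 21, 20 and 13 without WT replicates 2, 4 and 1, and 11 without NSun2 -/- replicate 4. The cause was not tested. With the replicate block 80 were lower and 15 higher. The numbers do not pair the samples: deviations of same-numbered libraries correlated at -0.06, -0.13, 0.31 and -0.15 for numbers 1 to 4.

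Isolated members (161) were 60 with neighbours under 10%. The difference in non-member background between genotypes (2.17 points) was 0.26 to 3.28 points without each library, with exact p between 0.114 and 0.8, and 0.26 without NSun2 -/- replicate 2. The differences at the 16 low members moved by less than the spread between libraries in all 128 refits without a library.

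Precision is limited by depth at members with few reads, and by copies of near-identical sequence.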
